A study of Mus musculus with 4 samples.

Results

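The genes of ribosome biogenesis and RNA polymerase I were followed in kidneys of diabetic and nondiabetic mice, on 4 Affymetrix 3' expression arrays. The members were the probe sets whose platform gene symbol is Utp, Nop or Rrp plus a number, starts with Polr1, or is Ncl, Npm1, Fbl, Nolc1, Dkc1, Gar1, Nhp2, Bop1, Wdr12, Pes1, Ubtf, Rrn3, Mybbp1a or Ddx21. This gave 95 of the 45101 probe sets on the array, which stand for 46 of 18193 named genes. The rule reads gene names and no measured value, but it was written with earlier results of these data known. A probe set is a group of short probes whose brightness reports 1 transcript or a few.

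The 4 groups were diabetic mice after uninephrectomy (removal of 1 kidney), diabetic mice after a sham operation, nondiabetic mice after uninephrectomy and nondiabetic mice after a sham operation. Diabetic mice carried the OVE26 transgene on the FVB/NJ background, and nondiabetic mice were littermates of control genotype. The OVE26 transgene acts in pancreatic beta cells and makes the animals diabetic from a young age. All mice were female, were operated at 2 months and were killed at 4.5 months of age, 10 weeks after surgery, with perfusion of the kidneys. Each group was 1 array of RNA pooled from 4 mice, so no value below measures the spread between animals, and having 4 arrays sets the precision. The study used uninephrectomy to accelerate the kidney disease of diabetes, and the comparisons below ask how this gene group stood with each factor.

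Ribosomes are built in the nucleolus. RNA polymerase I transcribes ribosomal DNA into a long precursor, which small nucleolar ribonucleoproteins (snoRNPs) modify and a series of assembly factors fold, cut and export as the small and large subunits. The 18S RNA of the small subunit is carved out of that precursor by the small subunit processome, to which most Utp proteins belong. Output of the pathway is known to follow cell growth and to be driven by the transcription factor MYC, and tubule cells that enlarge or divide are known to make more ribosomes.

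Promoters of the gene group were searched for the E-box CACGTG, the sequence that MYC binds together with MAX. The letters are the same on both strands. Of 38 member genes with an entry in the RefSeq promoter table (GRCm38.p6, 250 bases before to 50 after the start), 10 held at least 1 match, or 26.3%, against 12.1% of 9108 expressed genes and 8.09% of all 27025 genes in the table. Among genes with a single promoter in the table, 9 of 32 members held a match (28.1%), against 10.8% of expressed genes. The 250 bases before the start are shown for 3 members with a match before the start, the Pol I initiation factor gene Rrn3 and the assembly factor genes Nop2 and Utp18, and for the 2 members whose expression rose with diabetes, Utp20 and Nhp2. Capitals mark the E-box. In the Utp20 entry the only match begins 37 bases after the start, outside the stretch shown, and the Nhp2 entry holds none.
Rrn3, chr16:13780449-13780698, plus strand: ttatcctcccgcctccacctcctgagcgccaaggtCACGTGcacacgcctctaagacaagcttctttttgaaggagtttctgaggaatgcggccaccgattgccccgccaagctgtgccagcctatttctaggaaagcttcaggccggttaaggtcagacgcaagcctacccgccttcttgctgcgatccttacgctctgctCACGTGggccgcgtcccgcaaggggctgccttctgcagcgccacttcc
Nop2, chr6:125131633-125131882, plus strand: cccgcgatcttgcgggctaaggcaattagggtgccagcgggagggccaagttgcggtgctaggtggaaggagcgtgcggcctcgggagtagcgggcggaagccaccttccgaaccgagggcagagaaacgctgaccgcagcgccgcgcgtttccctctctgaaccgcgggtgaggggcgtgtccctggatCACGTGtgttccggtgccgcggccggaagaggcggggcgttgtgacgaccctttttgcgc
Utp18, chr11:93885767-93886016, minus strand: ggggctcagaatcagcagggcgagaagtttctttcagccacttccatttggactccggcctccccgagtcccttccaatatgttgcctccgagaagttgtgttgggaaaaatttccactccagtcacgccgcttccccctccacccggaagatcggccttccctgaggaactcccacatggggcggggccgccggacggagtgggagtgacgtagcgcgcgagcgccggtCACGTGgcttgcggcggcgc
Utp20, chr10:88826815-88827064, minus strand: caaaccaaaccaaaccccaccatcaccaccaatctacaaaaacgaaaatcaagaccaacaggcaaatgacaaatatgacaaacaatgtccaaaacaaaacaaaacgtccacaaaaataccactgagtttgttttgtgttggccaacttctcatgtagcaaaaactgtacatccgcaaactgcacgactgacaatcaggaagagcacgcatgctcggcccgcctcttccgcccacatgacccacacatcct
Nhp2, chr11:51619523-51619772, plus strand: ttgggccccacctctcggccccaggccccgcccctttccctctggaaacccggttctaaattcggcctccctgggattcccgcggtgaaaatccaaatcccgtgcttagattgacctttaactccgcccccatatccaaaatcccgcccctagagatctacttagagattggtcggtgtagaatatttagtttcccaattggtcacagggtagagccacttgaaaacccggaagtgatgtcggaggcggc
A match is a description of these letters and not a binding site.

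Nearly the whole gene group was expressed, and most of its genes had like signals on the 4 arrays. A gene was represented by its brightest probe set and counted as expressed when its mean log2(signal + 26.4) over the arrays reached 7.06, a signal of about 107.1. By this measure 44 of the 46 member genes and 76 of the 95 probe sets were expressed. Over the whole array it was 11197 of 18193 named genes and 19342 of 34945 probe sets with 1 symbol. The 2 member genes below the measure were Rrp9, of the U3 snoRNP, and Rrp12, of subunit export. The mean signal of the 44 genes ran from 139.7 for the retrogene Utp14b to 10920.1 for Nop10. In 37 of the 44 genes (84.1%) all 4 signals lay within 1.5-fold of each other, against 70.2% of the 11197 expressed genes of the array. The median gene of the group had a highest signal 1.29 times its lowest, and the range over the 44 genes was 1.04 to 3.10.

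**Figure D1:**
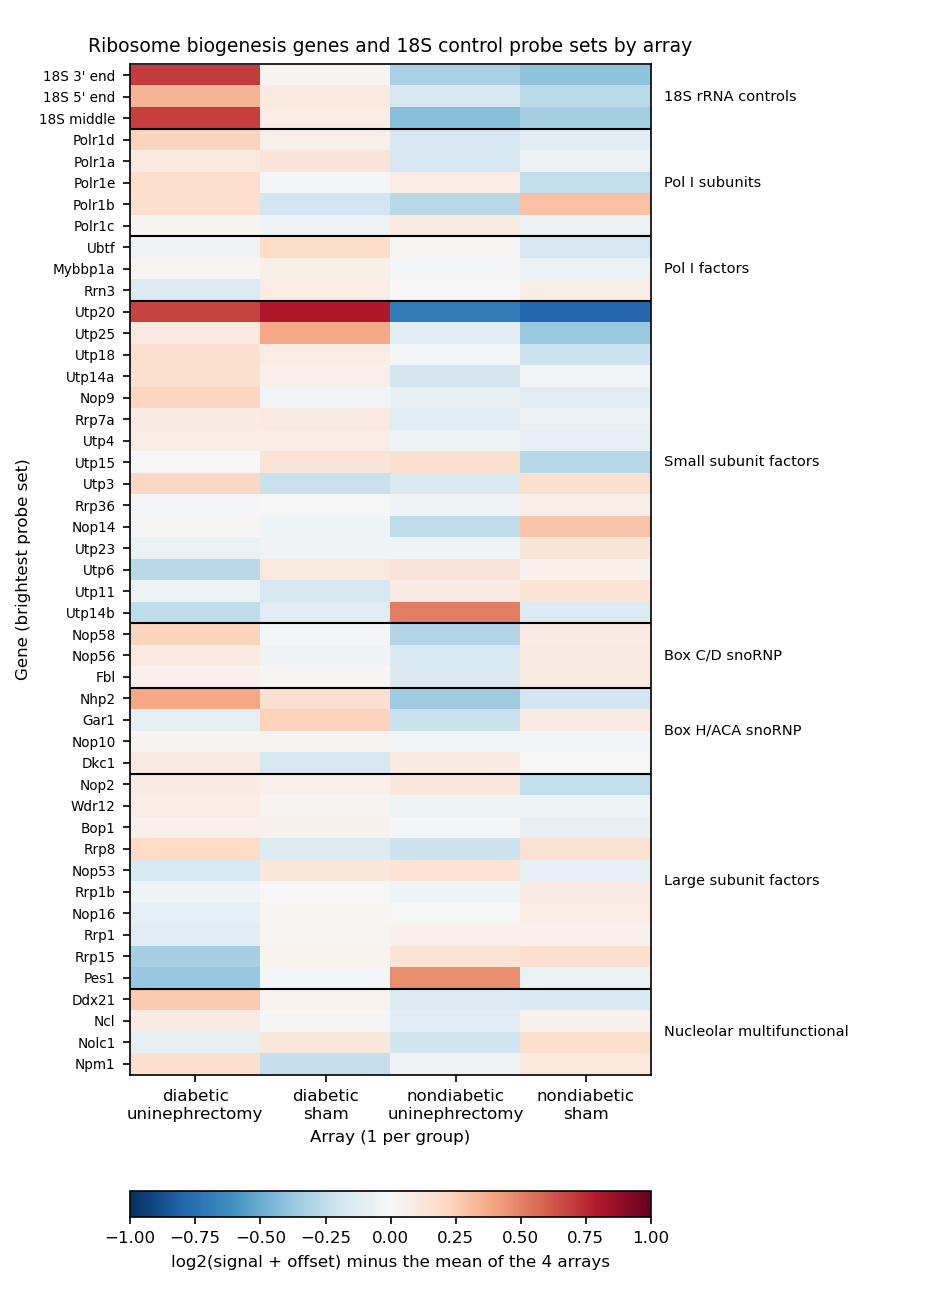
Log2(signal + 26.4) of each of the 44 expressed ribosome biogenesis genes and of the 3 control probe sets for 18S ribosomal RNA, as the deviation from the mean of the 4 arrays (colour), with 1 column per array and genes grouped by role. Utp20 stands out as high on both diabetic arrays, the 18S rows are highest on the diabetic uninephrectomy array, and most other rows are pale.

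The 18S control probe sets differed between the arrays more than the mean level of the ribosome biogenesis genes did. The probe set for the 3' end had a signal of 14946.5 in diabetic uninephrectomy and 9366.5 in diabetic sham mice, against 7337.1 in nondiabetic uninephrectomy and 6969.2 in nondiabetic sham mice. The probe set for the middle had 22537.2 and 14704.1 in the same diabetic groups, against 10395.7 and 11067.1 in the nondiabetic ones. The probe set for the 5' end had 28854.7 and 24316.8, against 20221 and 18892.9. All 3 were highest in diabetic uninephrectomy, next in diabetic sham mice, and lowest on both nondiabetic arrays. As log2 ratios of their geometric means, 18S differed by 0.89 with diabetes in uninephrectomised mice, 0.40 with diabetes in sham mice, 0.51 with uninephrectomy in diabetic mice and 0.03 with uninephrectomy in nondiabetic mice. The geometric mean signal of the 44 ribosome biogenesis genes differed by 0.10, 0.07, 0.01 and -0.02 in the same comparisons. 18S RNA has no poly(A) tail and the labelling starts from poly(A), so the 18S probe sets are a control of the labelled material and not a measure of ribosome number.

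Of the 44 genes 3 (6.8%), Ddx21, Nop9 and Utp18, had the order of arrays diabetic uninephrectomy, diabetic sham, nondiabetic uninephrectomy and nondiabetic sham from high to low, which is the order of the 18S geometric means, against 5.44% of all expressed genes. The diabetic uninephrectomy array was the highest of the 4 for 16 genes (36.4%), against 27.7% of expressed genes. The 3' over 5' ratio of 18S was 0.518 in diabetic uninephrectomy and 0.385 in diabetic sham mice, against 0.363 in nondiabetic uninephrectomy and 0.369 in nondiabetic sham mice, so it was highest where 18S was highest. Other array measures did not follow the 18S order. The same ratio, a sign of RNA integrity, was 0.906 and 1.01 for Gapdh in diabetic uninephrectomy and diabetic sham mice, against 0.993 and 0.897 in nondiabetic uninephrectomy and nondiabetic sham mice. For beta-actin it was 3.38 and 3.72, against 3.49 and 2.78. The 20th percentile of signal was 23.3 and 29.8, against 30.1 and 23.7, and the 18 hybridisation spike-in probe sets had 0.918-fold and 1.24-fold the nondiabetic sham signal in the diabetic groups and 1.23-fold in nondiabetic uninephrectomy. These last measures set diabetic uninephrectomy and nondiabetic sham apart from the other 2 arrays, a split that follows neither factor.

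With diabetes, 2 of the 44 genes rose and 0 fell. The test was an additive limma fit with surgery as covariate over all 11197 expressed genes, with Benjamini-Hochberg adjusted p below 0.05. Over all expressed genes 1.48% passed as higher and 0.75% as lower. At an unadjusted limma p below 0.05 the group again had 2 higher and 0 lower genes, against 5.43% and 4.1% of all expressed genes. The fit has 1 residual degree of freedom per gene and takes most of its error from other genes of like expression. That 1 degree of freedom is the difference between the diabetes effects of both surgeries. The limma SE and p therefore do not measure spread between replicates. With 1 array per group no single difference between arrays has a replicate check. In whole kidney, more cells of a type and more RNA per cell cannot be told apart.

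Utp20, a large scaffold protein of the small subunit processome that is required for 18S RNA processing in human cells, rose most. Its signal was 1444.6 in diabetic uninephrectomy and 1580.3 in diabetic sham mice, against 541.6 in nondiabetic uninephrectomy and 509.2 in nondiabetic sham mice. Both diabetic signals lay far above both nondiabetic ones, and surgery made little difference in either. The signal ratio was 2.67 in uninephrectomised and 3.10 in sham mice, and the mean log2 difference was 1.48 ± 0.18 (limma SE, adjusted p = 2.7e-08). Of 11197 expressed genes it ranked 21 by the mean of both diabetes differences and 3 by the smaller of them. The call was lost when limma took 1 prior variance for dim and bright genes alike (adjusted p = 0.16, range over the alternatives 1.7e-12 to 0.16). Utp20 has 1 probe set on the array, so no further probe set checks the value.

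Nhp2, a core protein of box H/ACA snoRNPs, which guide pseudouridylation of ribosomal RNA and are part of telomerase, was the other gene to rise. Its brightest probe set had 2654 in diabetic uninephrectomy and 2264.1 in diabetic sham mice, against 1576.6 in nondiabetic uninephrectomy and 1768.8 in nondiabetic sham mice. Its second probe set had 1294.7 and 1201.4 in diabetic mice, against 744.5 and 867.5 in nondiabetic mice. In both probe sets the diabetic signals lay above the nondiabetic ones, and the difference was larger after uninephrectomy (log2 0.74 and 0.78) than in sham mice (0.35 and 0.46). The mean log2 difference of the brightest probe set was 0.55 ± 0.16 (limma SE, adjusted p = 0.041). This call was lost in 5 of 9 alternatives, with limma adjusted p between 0.016 and 0.48 over all of them.

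**Figure D2:**
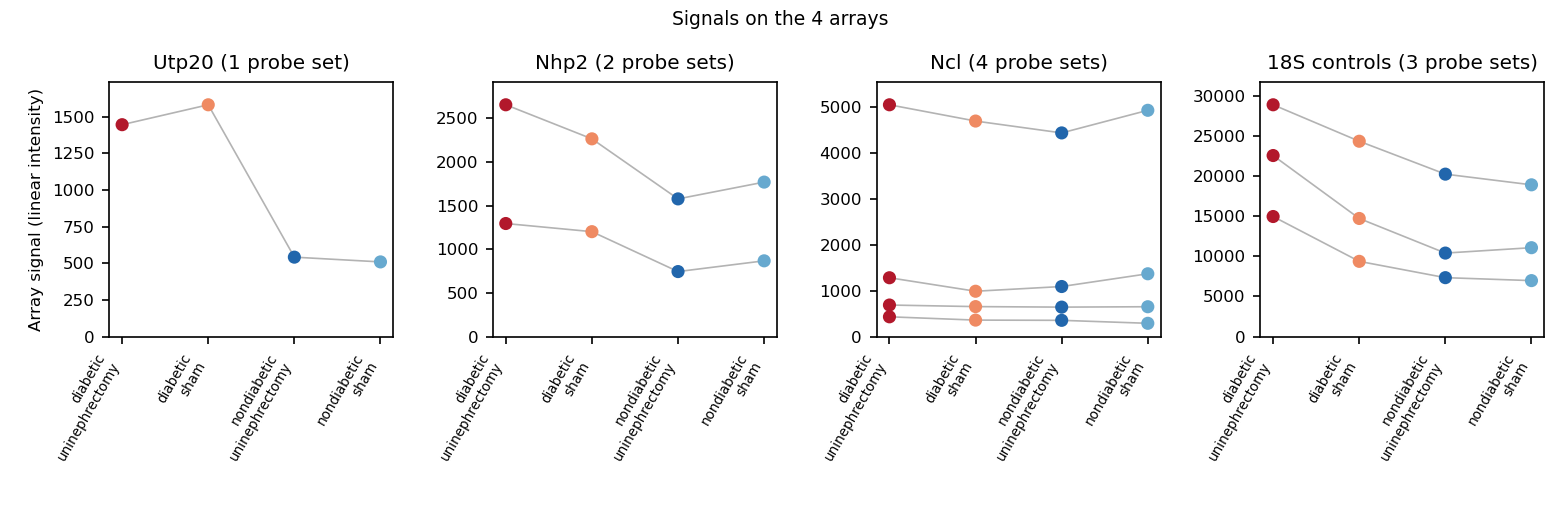
Linear signal on each of the 4 arrays for the expressed probe sets of Utp20, Nhp2 and the nucleolar protein gene Ncl and for the 3 18S control probe sets, with a point per array and a line joining the points of a probe set. Utp20 and both Nhp2 probe sets are higher on the 2 diabetic arrays, Ncl has no shared order, and the 18S probe sets are highest in diabetic uninephrectomy.

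The genes on either side of both were looked at after their values had been seen. Arl1, next to Utp20 on chromosome 10, had signals of 6538 and 6306.4 in diabetic uninephrectomy and diabetic sham mice, against 6432.7 and 6103.4 in nondiabetic uninephrectomy and nondiabetic sham mice. Slc5a8, on its other side, had 3116.5 and 3288.6, against 2884.9 and 2600.5. Both neighbours differed far less than Utp20, by log2 0.02 and 0.11 after uninephrectomy and 0.05 and 0.34 in sham mice. Hnrnpab, next to Nhp2 on chromosome 11, had 10340.9 and 10194.7 in diabetic mice, against 8317 and 8021.9 in nondiabetic mice, and Rmnd5b on the other side had 438.6 and 363.7, against 448.7 and 505.1. The diabetic signals of Hnrnpab lay above the nondiabetic ones, by log2 0.31 and 0.34, and those of Rmnd5b lay below.

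In the single comparisons few members passed 1.5-fold. With diabetes after uninephrectomy 2 genes were at least 1.5-fold higher (Utp20 and Nhp2) and 2 lower (Pes1 and Utp14b), or 4.5% each way, against 6.42% and 6.05% of expressed genes. With diabetes in sham mice 2 were higher (Utp20 and Utp25) and 0 lower, against 4.34% and 3.13%. Utp20 was at least 2-fold higher in both, and 0 other members were past 2-fold either way, against 2.14% of expressed genes higher and 1.03% lower after uninephrectomy and 0.786% and 0.447% in sham mice. Of the 44 genes 22 had the same sign with diabetes for both surgeries, against 52.4% of expressed genes, with 17 higher in both (38.6%, against 26.3%) and 5 lower (11.4%, against 26.1%). The median log2 difference of the 44 genes was 0.11 after uninephrectomy and 0.05 in sham mice, against -0.01 and 0.01 for all expressed genes. With each array centred on its median the members' medians were 0.23 and -0.04, so the sham value turned direction. Centring shifts every gene of an array alike, so the medians of all expressed genes move by as much as those of the members. Without centring, and without Utp20 and Nhp2, the members' medians were 0.10 and 0.04. The diabetic signals both lay above the nondiabetic ones in 15 of 44 genes (34.1%, against 19.1% of expressed genes) and both below in 3 (6.8%, against 18.6%). Apart from Utp20 and Nhp2 the 15 were Utp25, Ddx21, Polr1d, Utp18, Polr1a, Utp14a, Nop9, Rrp7a, Utp4, Wdr12, Bop1, Mybbp1a and Nop10, none of which passed limma. Across the 44 genes the diabetes differences of both surgeries had a Pearson r of 0.36, which was -0.12 without Utp20 and Nhp2, and a Spearman rho of 0.01. Over all 11197 expressed genes r was 0.157 and rho 0.104. These are descriptions across genes, which are not independent replicates.

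**Figure D3:**
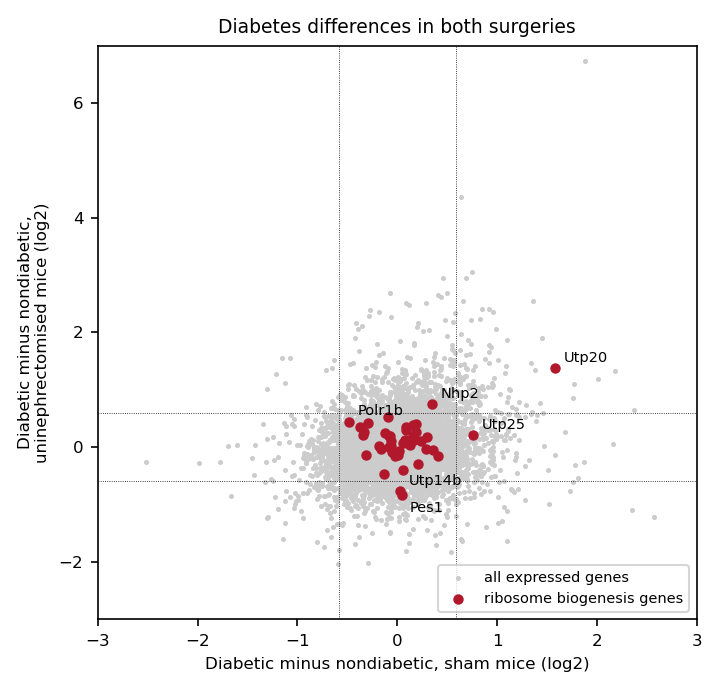
Log2 difference between diabetic and nondiabetic mice in sham (x axis) and uninephrectomised mice (y axis) for 11197 expressed genes (grey) and the 44 ribosome biogenesis genes (red), with dotted lines at 1.5-fold. Utp20 is the only red point past 1.5-fold on both axes, and most red points lie inside the dotted square.

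The 5 subunit genes of RNA polymerase I did not pass the test for either factor. Polr1a, the largest catalytic subunit, had 219.9 in diabetic uninephrectomy and 225.8 in diabetic sham mice, against 178.1 in nondiabetic uninephrectomy and 194.9 in nondiabetic sham mice. Its second expressed probe set had 170.2 and 268.5, against 124.2 and 166.1, so that both put each diabetic array above the nondiabetic array of the same surgery. Polr1b, the other catalytic subunit, had 274.9 and 208.9 in diabetic uninephrectomy and diabetic sham mice, against 195.3 and 302.9 in nondiabetic uninephrectomy and nondiabetic sham mice. It was thus higher with diabetes after uninephrectomy (log2 0.44) and lower in sham mice (-0.48). Polr1c and Polr1d encode subunits that RNA polymerase III also uses. Polr1c had 1522.1 and 1435.6, against 1596.1 and 1420.6, with a highest signal 1.12 times its lowest. Polr1d had 6111.5 and 5439.6 in diabetic mice, against 4659.6 and 4859.4 in nondiabetic mice, a mean log2 difference of 0.28 ± 0.16 (limma SE, adjusted p = 0.64). Its other 3 probe sets gave mean differences of 0.05 to 0.38, and the brightest belongs to a probe set class that can match further transcripts. Polr1e, a subunit that stabilises the initiating enzyme, had 312.7 and 270.8, against 289.7 and 226, while its dimmer probe set had 202.4 and 125.9, against 217.5 and 272.5. The 2 probe sets of Polr1e had opposite signs with diabetes (0.17 and -0.53 as mean log2 differences).

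None of the 3 genes for factors that act with RNA polymerase I passed the test. Ubtf, the factor that keeps ribosomal DNA open, had 1297.4 in diabetic uninephrectomy and 1518 in diabetic sham mice, against 1345.7 in nondiabetic uninephrectomy and 1182.1 in nondiabetic sham mice. Rrn3, which bridges the polymerase to the promoter, had 499.4 and 583.6, against 549.9 and 581.8. Mybbp1a, a nucleolar protein that binds the polymerase, had 1272 and 1305.1, against 1240.1 and 1195.4. By the brightest probe sets of these 3 genes the highest signal was at most 1.28 times the lowest. All 3 were lower with uninephrectomy in diabetic mice, by log2 values between -0.22 and -0.04. The second probe sets of Ubtf and Mybbp1a had mean log2 diabetes differences of -0.21 and -0.05, against 0.15 and 0.08 for the brightest. That of Mybbp1a varied more, from 178.6 in nondiabetic uninephrectomy to 278.7 in nondiabetic sham mice.

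Of the 15 expressed small subunit factors Utp20 alone passed. Utp25, which in zebrafish is needed for growth of the digestive organs, had 274.6 and 343.5 in diabetic uninephrectomy and diabetic sham mice, against 234.7 and 192.2 in nondiabetic uninephrectomy and nondiabetic sham mice. Both diabetic signals of Utp25 were higher, with a mean log2 difference of 0.48 ± 0.28 (limma SE, adjusted p = 0.66). Utp18 had 1124 and 1060.3, against 991.8 and 859.8, a mean difference of 0.24. At the low end Utp14b, an autosomal retrogene copy of Utp14a known from mouse spermatogenesis, had 109.6 and 123.7 in diabetic mice, against 204.6 and 120.9 in nondiabetic mice, so 1 array, nondiabetic uninephrectomy, stood above the other 3. Its X-linked parent Utp14a had 478.4 and 441.9, against 370.7 and 415.6, and was slightly higher in diabetic mice. Utp11 had 835.9 and 768.4 in diabetic mice, against 920.5 and 959.4, and Utp6 had 1181.5 and 1546.5, against 1571 and 1484.6. The second probe sets of both went the other way on average. Utp23 had 225.6 and 231, against 230.8 and 261.8 for its brightest probe set, and 252.8 and 229.2, against 141.4 and 140.3 for the next. These 2 probe sets of Utp23 disagree more than those of any other member gene, with mean log2 differences of -0.10 and 0.68.

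Utp3 had 1348.4 and 995.3 in diabetic uninephrectomy and diabetic sham mice, against 1050.5 and 1300.7 in nondiabetic uninephrectomy and nondiabetic sham mice, and Utp15 had 403.7 and 443.3, against 454.7 and 327.7. Nop14 had 307.1 and 294.9, against 251.4 and 378.2. In these genes the array of extreme signal was not the same for the groups of a factor. Utp4, Nop9, Rrp7a and Rrp36 had mean log2 diabetes differences between -0.02 and 0.19. Among the genes below the expression measure, Rrp12 had 133.4 and 136.1, against 25.2 and 116.2, and Rrp9 had 121.5 and 72.9, against 124.7 and 20.6. Rrp12 was lowest in nondiabetic uninephrectomy and Rrp9 in nondiabetic sham mice, both near the dimmest probe sets.

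Of the 7 genes for proteins that guide modification of ribosomal RNA, Nhp2 alone passed the test. Fbl, the methyltransferase of box C/D snoRNPs, had 1489.3 in diabetic uninephrectomy and 1455.5 in diabetic sham mice, against 1306.9 in nondiabetic uninephrectomy and 1541.7 in nondiabetic sham mice. The scaffold genes Nop56 and Nop58 had 548.2 and 498.5, against 457.5 and 543.9, and 840.2 and 710.3, against 579.1 and 758.2. By their brightest probe sets all 3 box C/D genes were higher with diabetes after uninephrectomy (log2 0.18 to 0.52) and lower in sham mice (-0.12 to -0.08), and in all 3 the nondiabetic uninephrectomy array was the lowest. The second probe sets did not share this: that of Fbl was lower after both surgeries (-0.05 and -0.22) and that of Nop56 higher (0.19 and 0.58). Of the H/ACA genes, the pseudouridine synthase gene Dkc1 had 996.9 and 823.8, against 988.9 and 940, and Gar1 had 596.1 and 750, against 541.2 and 674.2. Nop10 was the steadiest gene of the group, at 11150.2 and 11149.8, against 10684 and 10696.3. Beside the 0.55 of Nhp2, its partners in the same particle had mean log2 diabetes differences of -0.09 (Dkc1), 0.14 (Gar1) and 0.06 (Nop10). Whether Nhp2 differs from them was not tested.

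The 10 large subunit factors leaned neither way, with a median log2 diabetes difference of -0.06 after uninephrectomy and 0.01 in sham mice. Pes1, which with Bop1 and Wdr12 forms a complex needed for the large subunit, had 417.9 in diabetic uninephrectomy and 542.2 in diabetic sham mice, against 769.6 in nondiabetic uninephrectomy and 525.4 in nondiabetic sham mice. Its partners had 454.3 and 455.6, against 436.5 and 418.4 (Bop1), and 456.9 and 443.4, against 417.8 and 417.8 (Wdr12). Pes1 was the lowest of the 44 genes by mean diabetes difference (-0.40 ± 0.22, limma SE, adjusted p = 0.60), and its second probe set gave -0.35 on average but with the lower value in sham mice. Rrp15 had 333 and 437, against 470.6 and 481.4. Nop2, an RNA cytosine methyltransferase gene, had 631.5 and 615.1, against 645.9 and 497.5, and the methyltransferase gene Rrp8 had 332.1 and 256.4, against 242.6 and 319.2. By their brightest probe sets Nop16, Nop53, Rrp1 and Rrp1b had mean log2 diabetes differences between -0.09 and -0.04. Other expressed probe sets gave -0.20 for Nop53, -0.03 for Rrp1, and 0.10 and 0.37 for Rrp1b.

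The abundant nucleolar proteins with several functions did not pass either. Ncl, nucleolin, had 5052.5 in diabetic uninephrectomy and 4697.9 in diabetic sham mice, against 4439.3 in nondiabetic uninephrectomy and 4932.2 in nondiabetic sham mice. Npm1, nucleophosmin, had 8657.6 and 6550.2, against 7511.8 and 8292.7. By their brightest probe sets both were highest in diabetic uninephrectomy, but the other diabetic array lay below nondiabetic sham. The next brightest probe sets of both were highest in nondiabetic sham mice. These had 4157.1 there against 3891.9 in diabetic uninephrectomy for Npm1, and 1369.4 against 1282.8 for Ncl. The dimmer expressed probe sets of Ncl had both diabetic signals above both nondiabetic ones. Ddx21, a helicase that couples RNA polymerase I output to processing, had 619 and 524.4, against 463.8 and 457.1, a mean log2 difference of 0.29 ± 0.21 (limma SE, adjusted p = 0.82). Its second probe set had 194.5 and 224.3, against 279.1 and 234.7, with the opposite sign. Nolc1, a chaperone of snoRNPs, had 507.6 and 588.7, against 469.6 and 614.4.

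Probe sets of the same gene gave a measure of how far a small difference can be read. Of 24 member genes with 2 or more expressed probe sets, 11 had the same sign of the mean diabetes difference in all of them. The share among other genes of the array was not counted. Within a member gene the difference between the highest and lowest probe set had a median of 0.29 on the log2 scale. It ran from 0.00 to 0.77. The mean differences of most member genes are smaller than that median. Nhp2 and Pes1 had mean differences beyond it in both probe sets and ranges of 0.07 and 0.05, although the probe sets of Pes1 placed the lower value after different surgeries.

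**Figure D4:**
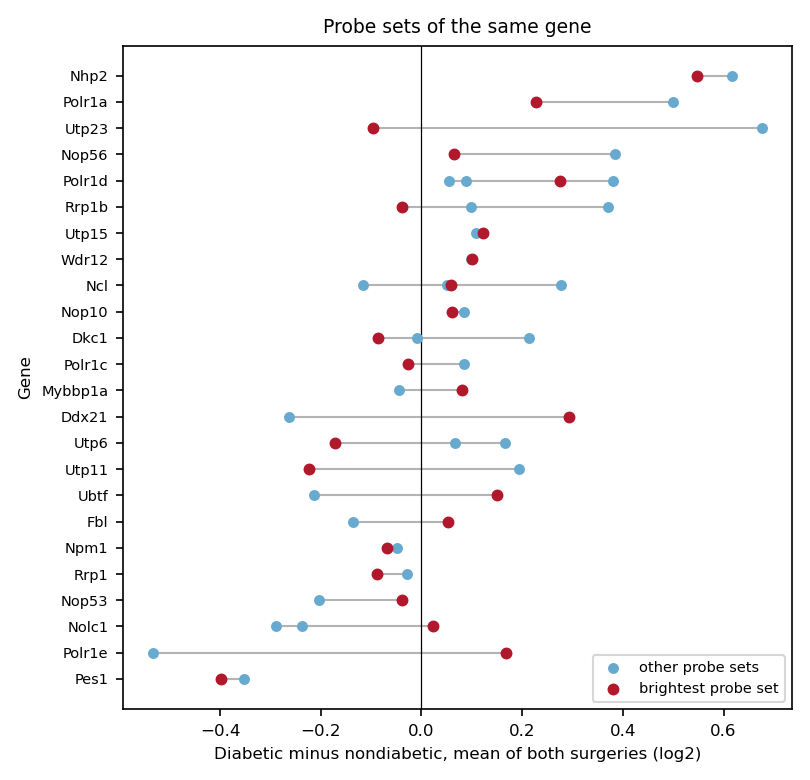
Mean log2 difference between diabetic and nondiabetic mice for each expressed probe set of the 24 genes with several, with the brightest probe set in red, the others in blue and a line from lowest to highest. Both Nhp2 probe sets lie between 0.55 and 0.62, while 11 of the 24 genes have all probe sets on 1 side of 0.

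For uninephrectomy no member gene passed the test. In limma 0 of 44 genes passed in either direction, also at an unadjusted p below 0.05, against 0.339% of expressed genes higher and 0.179% lower after adjustment and 3.19% and 2.48% before it. In diabetic mice 0 genes were at least 1.5-fold higher or lower, against 5.0% and 4.34% of expressed genes. In nondiabetic mice Utp14b was higher and 0 were lower, against 3.82% and 2.81%. The median log2 difference of the members was -0.00 in diabetic and -0.04 in nondiabetic mice, against -0.02 and 0.0025 for all expressed genes. With each array centred on its median the members' values were 0.08 and -0.17, and with probe sets averaged per gene 0.01 and 0.0008. Centring moves the medians of all expressed genes by as much. By the brightest probe sets the highest mean differences were 0.26 for Polr1e, 0.25 for Utp14b, 0.20 for Nop2 and 0.17 for Dkc1. The lowest were -0.31 for Gar1, -0.29 for Nolc1, -0.24 for Nop14 and -0.20 for Rrp15. Other expressed probe sets gave 0.15 for Polr1e, -0.15 and 0.24 for Dkc1, and 0.02 and -0.06 for Nolc1. Both uninephrectomy signals lay above both sham signals in 4 genes (9.1%, against 13.6% of expressed genes) and below in 7 (15.9%, against 15.4%).

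The difference between the uninephrectomy effects, diabetic minus nondiabetic, was largest in Polr1b (0.93), Utp3 (0.73), Rrp8 (0.70) and Nop58 (0.61), and most negative in Pes1 (-0.88), Utp14b (-0.79), Utp15 (-0.57) and Utp25 (-0.55). It uses all 4 arrays and is what the additive fit takes as its error, so it could not be tested. These values are of the brightest probe sets. By its second expressed probe set Pes1 had the larger uninephrectomy difference in diabetic mice (0.62, against 0.11 in nondiabetic mice). Outside nondiabetic uninephrectomy, Utp14b had signals of 109.6, 123.7 and 120.9, close to the expression measure of 107.1. In 9 genes (20.5%, against 15.0% of expressed genes) the diabetic uninephrectomy and nondiabetic sham arrays were both above the other 2, and in 6 (13.6%, against 18.2%) both below. The 9 were Fbl, Nop56, Nop58, Ncl, Npm1, Nop14, Polr1b, Rrp8 and Utp3. The same pair of arrays had the lower background and spike-in signals given above, and the part of this in the 9 genes was not tested.

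The rest of the pathway, listed by role apart from the members, held no gene that passed. Of 140 listed genes 137 had a named probe set and 132 were expressed, and 0 rose or fell with diabetes or with uninephrectomy in limma (3 and 2 at an unadjusted p below 0.05). Their median log2 diabetes difference was 0.06 after uninephrectomy and 0.01 in sham mice. Myc, the transcription factor that drives the pathway, had the highest mean difference, with signals of 553.7 in diabetic uninephrectomy and 214 in diabetic sham mice, against 245.7 in nondiabetic uninephrectomy and 129.2 in nondiabetic sham mice. Its mean difference of 0.86 ± 0.28 did not pass (limma SE, adjusted p = 0.10), and neither did its larger mean difference with uninephrectomy, 1.04 ± 0.28 (adjusted p = 0.062). The further Pol I subunits Cd3eap, Znrd1 and Twistnb had mean log2 differences of 0.21, 0.03 and -0.08. Mphosph6, an exosome cofactor gene, had 656.9 and 436.3 in diabetic mice, against 378.1 and 327.5, a mean of 0.57 ± 0.23 (limma SE, adjusted p = 0.27). In the small subunit list the highest were Tbl3, Wdr75 and Tsr1 (0.30, 0.30 and 0.27) and the lowest Riok2, Nob1 and Noc4l (-0.42, -0.36 and -0.34). In the large subunit list the highest were Eif6, Nip7 and Nol12 (0.34, 0.33 and 0.31) and the lowest Nvl, Noc3l and Lsg1 (-0.28, -0.27 and -0.25). Of snoRNP assembly genes Coil had 0.34, and 0 of 19 expressed subunit genes of RNA polymerases II and III passed.

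**Figure D5:**
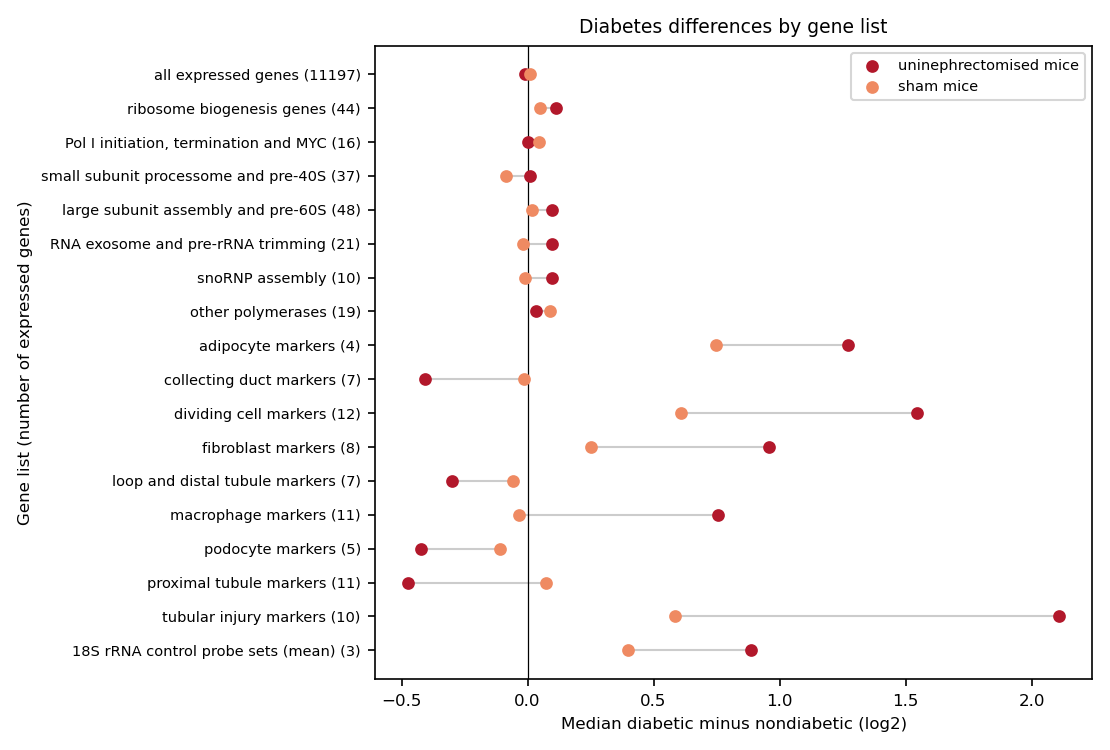
Median log2 difference between diabetic and nondiabetic mice for each gene list, in uninephrectomised (dark red) and sham mice (orange), with the number of expressed genes in brackets and the geometric mean of the 3 18S control probe sets at the bottom. Lists of ribosome biogenesis lie near 0, while injury, dividing cell, fibroblast and adipocyte markers and 18S lie to the right for both surgeries.

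Marker genes of cell types and states moved with diabetes beside the rise of Utp20 and Nhp2. In limma 6 of 12 expressed dividing cell markers and 8 of 10 expressed tubular injury markers rose and 0 fell. The summed signal of the dividing cell list was 12533.3 in diabetic uninephrectomy and 7660.4 in diabetic sham mice, against 6116.6 in nondiabetic uninephrectomy and 6582.3 in nondiabetic sham mice, and that of the injury list was 44037.6 and 20015.2, against 18227.8 and 14608.8. Abundant genes weigh most in these sums: Pcna gave 5653.3 of the dividing cell sum and Clu 21780.7 of the injury sum in diabetic uninephrectomy. The median log2 diabetes difference was 1.54 after uninephrectomy and 0.61 in sham mice for the dividing cell list, and 2.11 and 0.59 for the injury list. Of macrophage markers 2 of 11 rose, with sums of 16407.2 and 9291.9, against 8515.9 and 9769.5, and of fibroblast markers 2 of 8, with 19591 and 11166.8, against 7693.3 and 8242.4. Of adipocyte markers 3 of 4 rose, with 13228.1 and 26325.5, against 5380.7 and 14443.1. Proximal tubule markers, of which 11 of 12 were expressed, summed to 120501.4 and 155991.6, against 174731.8 and 168787, and 1 fell. Collecting duct markers had 1 of 7 higher and 2 lower (sums 10628.8 and 11425.8, against 10800.9 and 11316.9), loop and distal tubule markers 1 of 7 lower (85033.8 and 99481.3, against 107772.9 and 96735.8) and podocyte markers 1 of 5 lower (2774.5 and 4109.1, against 3820.4 and 3956.5). Of 9 lymphocyte markers on the array 0 were expressed. The part of these lists in the rise of Utp20 and Nhp2 was not tested.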

How the data were processed

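The authors deposited 1 table of linear intensity values for 45101 probe sets on 4 arrays. Per the labels' protocols, TriZol RNA of 4 female mice was pooled per group and 100 ng was labelled with the 3' IVT Express kit. For software, background correction and build the sources used here give nothing. The mean intensity without the highest and lowest 2% was 500.003 on every deposited array, so the authors had scaled the values, and no further normalisation was applied. The depth of an array is unknown.

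Values were set on the log2(value + 26.4) scale, 26.4 being the 20th percentile, which shrinks differences of dim genes. The platform annotation gave 1 symbol for 34945 probe sets, of which 34741 matched the RefSeq table of GRCm38.p6, with 0 symbols changed. 932 probe sets with several symbols and 9160 with none were left out. Each gene was its brightest probe set, kept at or above the median over all probe sets. Each factor was fitted additively with limma 3.58.1 under R 4.3.3, letting the prior variance follow expression (59.5 prior degrees of freedom), adjusted over all 11197 genes. Comparisons between 2 arrays are values, counted at 1.5-fold. The fit was also run on simulated data with known changes, in which the noise was normal and set by expression level alone. The outcome is not given here, and such data cannot check whether real noise follows expression. Members, lists and the fold threshold were chosen with earlier results of these data known, so a rise of Utp20 is not independent evidence. Signals were given for members that passed, for the highest and lowest by each difference (6, 4 and 4 a side) and for the polymerase and nucleolar genes. Alternatives were quantile normalisation, median centring, no or a stricter filter (75th percentile), the mean of probe sets or each counted singly, offsets of 1 and 72.5, 2-fold, no trend and adjusted p below 0.1.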

Additional observations from a re-analysis of the deposited data

Results flagged for a closer look

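Both arms of a factor moved opposite ways, by at least 0.35 on the log2 scale in each, in 3 member genes, a difference that was not tested. The share of all expressed genes that meet this rule was not counted, so the 3 are no result about the members. Polr1b differed with diabetes by 0.44 in uninephrectomised and -0.48 in sham mice, and with uninephrectomy by 0.36 in diabetic and -0.57 in nondiabetic mice. Utp3 differed with diabetes by 0.35 in uninephrectomised and -0.38 in sham mice. Pes1 differed with uninephrectomy by -0.36 in diabetic and 0.53 in nondiabetic mice by its brightest probe set. Its second expressed probe set did not share this, with 0.62 in diabetic and 0.11 in nondiabetic mice. The control probe sets for 18S ribosomal RNA, which lie outside the gene measurement, were higher in diabetic uninephrectomy than in nondiabetic sham mice, by 2.14-fold at the 3' end, 2.04-fold in the middle and 1.53-fold at the 5' end.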

How the results depend on the processing

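With 1 array of pooled RNA per group no array could be left out, and there were no replicates to pair. The 2 genes that rose with diabetes became 1 gene, Utp20, under median centring, without the expression filter, with the mean of probe sets and with probe sets counted singly, and 0 without a trend, where 0 of all genes passed (906 at an unadjusted p below 0.05). Over all genes the calls for diabetes numbered 250, and 3 to 315 under the other alternatives, and those for uninephrectomy 58, and 1 to 118. The 0 that fell with diabetes and the 0 that passed for uninephrectomy stayed 0. At least 1.5-fold with diabetes after uninephrectomy, the 2 higher genes were 3 under median centring and without a filter. They were 4 probe sets counted singly and 1 at 2-fold, and the 2 lower were 1 under the stricter filter and 0 at 2-fold. In sham mice the 2 higher were 1 under the stricter filter, the mean of probe sets and 2-fold. They were 3 without a filter and 4 counted singly, and the 0 lower were 2 counted singly. With uninephrectomy in diabetic mice 0 higher and 0 lower were 2 and 1 counted singly. In nondiabetic mice the 1 higher was 0 under median centring, the stricter filter, the larger offset and 2-fold, and 2 without a filter, and the 0 lower were 1 under quantile normalisation, no filter and the mean of probe sets, and 2 under median centring and the offset of 1. The cause of these changes was not tested. The median with diabetes after uninephrectomy was 0.11, and 0.23 under median centring, and with uninephrectomy in nondiabetic mice -0.04, and -0.17. Median centring removes differences between the array medians, which were 7.07, 7.15, 7.19 and 7.06 on the log2 scale in diabetic uninephrectomy, diabetic sham, nondiabetic uninephrectomy and nondiabetic sham mice. It moves the members and all other genes of an array by the same amount. In sham mice the diabetes median lay between -0.04, under median centring, and 0.06. Utp20 kept a log2 difference of 1.41 to 1.52 in all of them.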
